A study of Mus musculus with 40 samples.

Results

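The 10 genes described here belong to the liver X receptor (LXR) and cholesterol efflux programme of macrophages: Nr1h3 and Nr1h2, which encode the receptors LXRα and LXRβ, the export genes Abca1, Abcg1 and Apoe, the further LXR targets Mylip and Lpcat3, and the connected genes Ch25h, Soat1 and Pparg. They were taken by name, and all 10 were found among the 43430 genes of the count table and were among the 11853 genes with enough counts to be tested. The RNA-seq libraries came from bone marrow-derived macrophages (BMDMs) of 5 WT mice, which carried Vav-iCre without the NDI1 allele, and 5 littermate NDI1 mice, in which Vav-iCre removes a stop cassette in front of NDI1 at Rosa26 in all blood lineages. NDI1 is a yeast NADH dehydrogenase that escapes piericidin A, a blocker of complex I of the respiratory chain. Mice of both sexes, 8 to 14 weeks old and of a mixed C57Bl/6J/N background, gave marrow that was grown for 6 days with 20 ng/ml M-CSF. The cells of each mouse were left untreated, given LPS (100 ng/ml, 4 h), given piericidin A (500 nM), or given piericidin A 30 min before LPS, which makes 8 groups of 5 and 40 libraries. The comparisons ask how each gene responded to the bacterial lipid LPS, how piericidin A altered it, and whether NDI1, which keeps NADH oxidation going, altered that effect.

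LXRα and LXRβ are nuclear receptors that bind oxysterols, the oxidized forms of cholesterol, and act on DNA as partners of the retinoid X receptors. In macrophages with excess cholesterol they switch on ABCA1 and ABCG1, which pass cholesterol to lipoprotein acceptors, and APOE, which is itself such an acceptor. MYLIP is a ubiquitin ligase through which LXR lowers sterol uptake, and LPCAT3 remodels membrane phospholipids. CH25H makes 25-hydroxycholesterol, SOAT1 stores cholesterol as esters in droplets, and PPARγ, the product of Pparg, is a lipid-sensing receptor that acts upstream of LXRα in macrophages.

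In the table's coordinates (mm10), the receptor genes are Nr1h3 (ENSMUSG00000002108) at chr2:91184061-91202834 on the minus strand and Nr1h2 (ENSMUSG00000060601) at chr7:44549616-44553951 on the minus strand. The export genes are Abca1 (ENSMUSG00000015243) at chr4:53030787-53159895 on the minus strand, Abcg1 (ENSMUSG00000024030) at chr17:31057698-31115777 on the plus strand and Apoe (ENSMUSG00000002985) at chr7:19696109-19699166 on the minus strand. The other target genes are Mylip (ENSMUSG00000038175) at chr13:45389742-45412019 on the plus strand and Lpcat3 (ENSMUSG00000004270) at chr6:124663027-124704418 on the plus strand. The last 3 are Ch25h (ENSMUSG00000050370) at chr19:34473786-34475135 on the minus strand, Soat1 (ENSMUSG00000026600) at chr1:156424525-156474331 on the minus strand and Pparg (ENSMUSG00000000440) at chr6:115361221-115490401 on the plus strand. Values are counts over the exons of each gene.

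Promoter sequence was available in RefSeq (GRCm38.p6) for 9 of the 10 genes with 14 start sites, and none was found for Abcg1. The 250 bases before each start were searched on both strands for 6 motifs. The strict LXR element, a direct repeat of the half-site AGGTCA with 4 bases between (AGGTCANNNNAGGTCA), was in none of them and in 0.01522% of all 32851 promoters of that table. A looser form, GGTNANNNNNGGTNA, was in the Abca1 promoter and in 0.621% of all promoters. The single half-site AGGTCA, which is part of the strict repeat, was found at both upstream starts of Pparg (14.02% of all promoters), and the cyclic AMP response element TGACGTCA was found in Ch25h (1.546%). The kappa B site GGGANTTTCC (0.3562%) and the sterol response element TCACNCCAC (1.053%) were found before no start of these genes. The promoters of the 3 genes with a match are given because Abca1 is the classical LXR target and because Ch25h and Pparg showed the 2 largest LPS changes, up and down. Each runs 5′ to 3′ on the gene's strand and ends at the base before the start, and capitals mark the match. The regions are chr4:53159896-53160145 (minus strand) for Abca1, chr19:34475149-34475398 (minus strand) for Ch25h and chr6:115362099-115362348 (plus strand) for Pparg.
Abca1: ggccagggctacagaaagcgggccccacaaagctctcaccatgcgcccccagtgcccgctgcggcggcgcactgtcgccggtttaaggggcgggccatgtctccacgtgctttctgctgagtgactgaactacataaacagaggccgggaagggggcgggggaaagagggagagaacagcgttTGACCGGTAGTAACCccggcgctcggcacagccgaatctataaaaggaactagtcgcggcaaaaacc
Ch25h: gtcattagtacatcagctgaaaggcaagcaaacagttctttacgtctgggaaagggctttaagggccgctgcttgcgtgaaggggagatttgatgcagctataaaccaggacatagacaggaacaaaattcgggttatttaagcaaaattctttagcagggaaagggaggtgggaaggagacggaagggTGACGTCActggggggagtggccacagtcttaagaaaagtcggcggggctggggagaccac
Pparg: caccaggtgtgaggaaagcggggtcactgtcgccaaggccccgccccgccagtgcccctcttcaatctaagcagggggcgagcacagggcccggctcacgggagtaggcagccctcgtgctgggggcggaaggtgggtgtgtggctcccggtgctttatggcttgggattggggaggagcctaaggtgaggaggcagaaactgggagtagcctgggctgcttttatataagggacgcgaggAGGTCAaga
The loose repeat of Abca1 lies on the strand opposite to the one printed and begins 67 bases before the start. The element of Ch25h begins 61 bases, and the half-site of Pparg 9 bases, before the start. A match describes the letters in these windows only.

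The library totals lay between 6950748 and 13552070 counts. Levels are given as CPM (counts scaled to a common library size) scaled with TMM factors, which set the bulk of genes equal between libraries. These factors were 1.13 to 1.37 in the 20 libraries without LPS and 0.696 to 0.899 in the 20 with LPS. With the library total alone the median gene moved by −0.78 (log2) with LPS in WT, so all LPS changes below are relative to the bulk of genes. A change is called where edgeR's quasi-likelihood test over all 11853 genes gave a Benjamini-Hochberg adjusted p under 0.05. Because the 4 libraries of a mouse varied together, the value with mouse as a block is added where it changes a call of the 10 genes, and for the related lists below as counts. Summed macrophage markers were at 19800 to 38800 CPM in every library, T cell markers at up to 1.28 CPM and erythroid markers at up to 0.126 CPM. Mouse 4 of each genotype stood apart. Its 8 libraries held 126 to 585 CPM of neutrophil and precursor markers against 3.41 to 31.2 CPM in the other 32 libraries, and also, in WT mouse 4, more stromal marker RNA (28.2 to 102 CPM, against 8.78 to 11.6 CPM in NDI1 mouse 4 and 0.633 to 17.2 CPM in the other mice) and, in some of the 8, more B cell (up to 11.6 against up to 2.00 CPM), dendritic cell (up to 40.9 against up to 14.9 CPM), mast cell and basophil (up to 6.58 against up to 0.640 CPM) and endothelial marker RNA (up to 19.0 against up to 8.32 CPM). The part of these cells in the levels below was not tested, and in such bulk samples a change in the make-up of the culture and a change per cell cannot be told apart.

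Set per kilobase of exon, Apoe was by far the most abundant of the 10 genes in all 8 groups, at 1760 ± 1310 CPM per kb (SD, n = 5) in untreated WT cells. Abca1 followed with 75.8 ± 28.5, Soat1 with 45.4 ± 5.00, Abcg1 with 38.2 ± 14.1 and Mylip with 33.6 ± 13.7 CPM per kb, and neighbours in this order overlapped in mean ± SD, although the lowest Abca1 library (55.1 CPM per kb) was above the highest of Soat1 (49.3 CPM per kb). Nr1h2 (25.8 CPM per kb) was above Nr1h3 (16.6 CPM per kb) in the mean, although mouse 4 of WT reached 31.6 CPM per kb for Nr1h3. Lpcat3 (15.1 CPM per kb) and Pparg (7.30 CPM per kb) were lower, and Ch25h was near 0 (0.138 CPM per kb). With LPS, Ch25h rose to 54.2 CPM per kb in WT and 56.2 CPM per kb in NDI1, close to Abca1 at 64.4 and 63.5 CPM per kb, while Pparg was last of the 10 in the 4 groups with LPS. Ch25h ranked 3 of 10 per kilobase with LPS in both genotypes, and 6 of 10 without length.

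**Figure D1:**
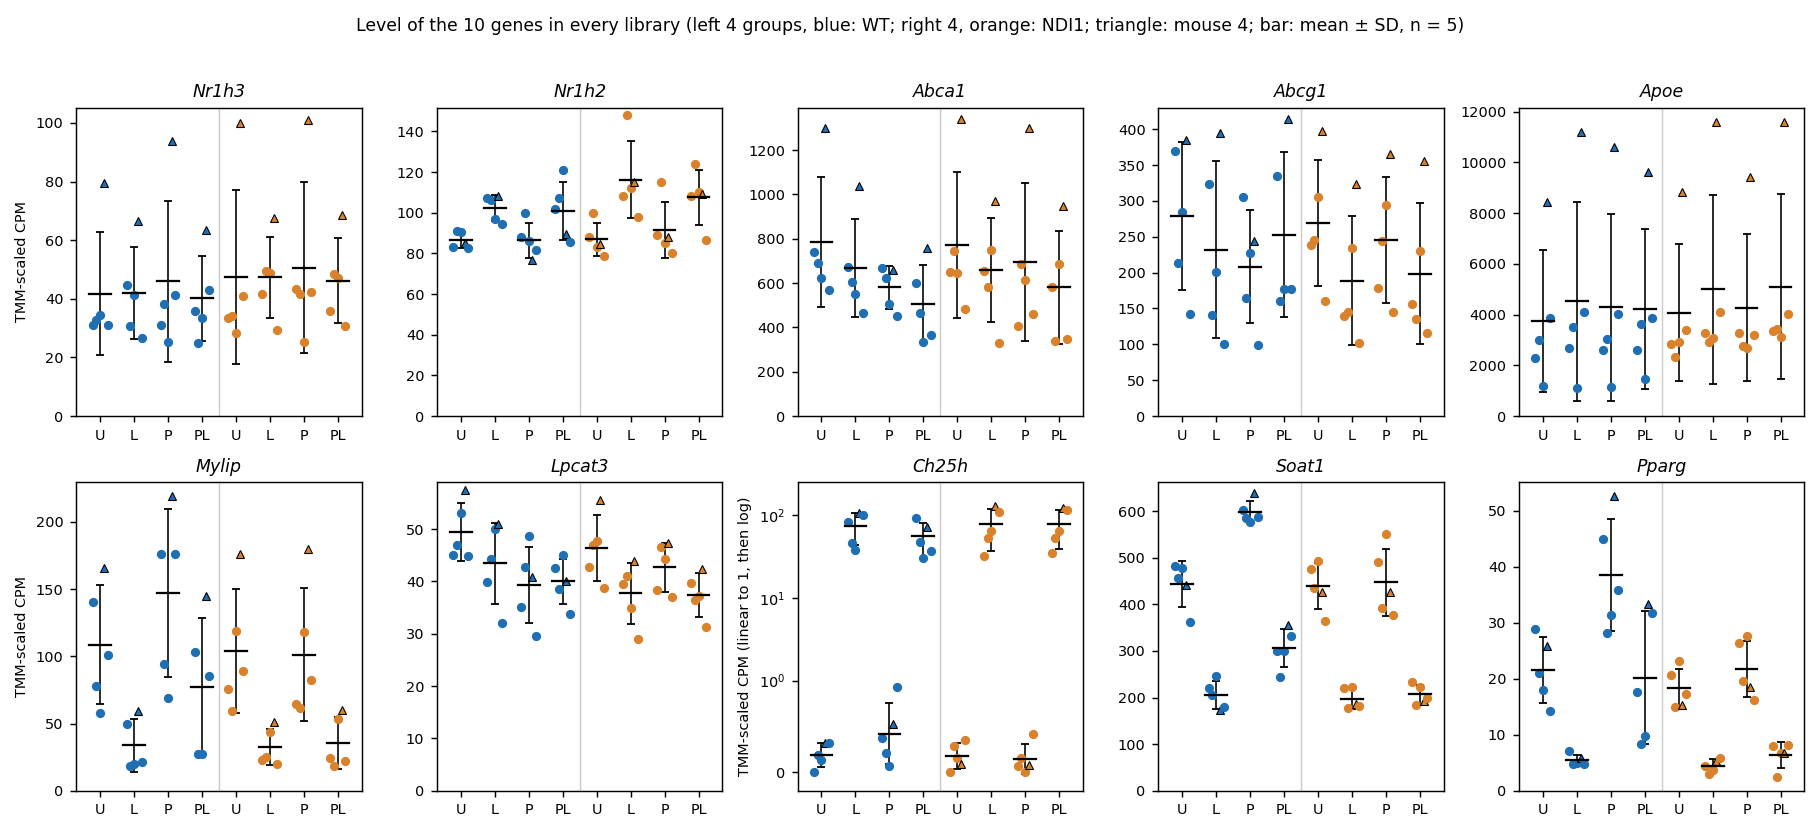
TMM-scaled CPM of the 10 genes (y axis; for Ch25h linear up to 1 and logarithmic above) in the 8 groups (x axis: U untreated, L LPS, P piericidin A, PL both), with 1 point per library and the mean ± SD of 5. Soat1 and Pparg fell with LPS in both genotypes and stood higher with piericidin A in WT, Ch25h was near 0 without LPS, and the triangles of mouse 4 lead for Apoe in all 8 groups.

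LPS moved 5 of the 10 genes in WT cells, with Ch25h and Nr1h2 higher and Mylip, Soat1 and Pparg lower. Across all genes 62.5% were called (31.5% higher and 31.0% lower), so that a share of 5 of 10 was not above the background. With the library total alone 9 of the 10 were called in WT, 1 higher (Ch25h) and 8 lower, against 81.0% of all genes. In NDI1 cells 6 of the 10 were called, the same 5 and Lpcat3, against 62.7% of all genes (31.5% higher and 31.2% lower). With mouse as a block, 7 of the 10 were called in WT (72.0% of all genes) and 8 in NDI1 (72.4%). The median log2 change of the 10 genes was −0.21 in WT and −0.26 in NDI1, beside −0.01 over all genes in both. With LPS 1 of 3 tested dendritic cell markers (Ccr7) and 1 of 2 endothelial markers (Cdh5) were called higher in each genotype. These shares are not above those of all genes, and both genes were named here after their values were seen. Of 8 macrophage markers, 3 were called higher and 1 lower in WT, and 4 higher and 1 lower in NDI1. In NDI1 with mouse as a block, 1 dendritic cell marker was higher and 1 lower, and 2 endothelial markers were higher. The summed dendritic cell markers ran from 0.571 to 3.58 CPM (median 2.35) in untreated WT and from 2.88 to 20.3 CPM (median 7.48) with LPS, and the endothelial markers from 2.03 to 6.04 (median 2.53) and from 2.12 to 10.8 CPM (median 5.23). By edgeR without the block 0 of the tested B cell, neutrophil and stromal markers were called with LPS in WT, and 0 passed at an unadjusted p under 0.05, while with the block 2 B cell markers and 1 neutrophil marker were higher. The part of these cells in the LPS changes was not tested.

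Ch25h had the largest change. Its counts in untreated WT mice 1 to 5 were 0, 3, 2, 4 and 5, and with LPS they were 613, 431, 340, 787 and 662. The levels with LPS were 83.5, 46.0, 37.9, 108 and 100 CPM, and no library without LPS exceeded 0.933 CPM. The fitted log2 fold change was 8.50 ± 0.58 (SE) in WT (adjusted p = 2.59e-15) and 8.63 ± 0.59 in NDI1 (adjusted p = 2.91e-15). The untreated WT group held 14 counts in all and the untreated NDI1 group 12, so these sizes rest on few counts. Ch25h shares exon bases with Gm26902 on the other strand, and reads of the pair may not have been separated.

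Of the receptors, LXRβ (Nr1h2) was slightly higher with LPS and LXRα (Nr1h3) was not called relative to the bulk of genes. Nr1h2 was at 83.2, 90.8, 90.6, 85.0 and 82.5 CPM in untreated WT mice and at 107, 106, 96.9, 108 and 94.2 CPM with LPS, so that the groups did not overlap. The log2 change was 0.25 ± 0.11 in WT (adjusted p = 0.0472) and 0.42 ± 0.11 in NDI1 (adjusted p = 0.00114), but with the library total alone it turned to −0.53 in WT and −0.35 in NDI1. The WT call was lost in 14 of 18 alternative settings, that reversal included. Nr1h3 changed by 0.01 ± 0.37 in WT and by 0.00 ± 0.37 in NDI1 (adjusted p = 0.984 and 0.999), while with the library total alone it was called lower in both, at −0.77 each (adjusted p = 0.0394 and 0.0393). The Nr1h3 levels in untreated WT mice were 31.1, 32.8, 34.5, 79.4 and 31.1 CPM, with mouse 4 far above the others, and Gm13783 overlaps its exons on the same strand.

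No export gene was called with LPS in the fit with TMM and no block, while with the library total alone Abca1 (−1.03, adjusted p = 0.00158) and Abcg1 (−1.07, adjusted p = 0.00574) were called lower in WT. Abca1 in WT mice was at 742, 691, 623, 1300 and 571 CPM untreated and at 671, 605, 553, 1040 and 467 CPM with LPS, lower in each of the 5 mice. The groups overlapped, and the log2 change of −0.24 ± 0.32 was not called (adjusted p = 0.534, and 0.15 with mouse as a block). Abcg1 was at 369, 214, 285, 385 and 142 CPM untreated and at 324, 141, 201, 394 and 101 CPM with LPS, lower in 4 of 5 WT mice. Its log2 change was −0.27 ± 0.37 in WT and −0.52 ± 0.37 in NDI1. Abcg1 was called in both genotypes with mouse as a block (adjusted p = 0.016 and 0.000147). Apoe ran from 1200 to 8440 CPM in untreated WT cells and from 1090 to 11200 CPM with LPS, a spread between mice larger than the change of 0.26 ± 0.59, which was −0.56 with the library total alone. In NDI1 the Apoe change of 0.30 ± 0.59 was called with mouse as a block (0.25, adjusted p = 0.00689), and with the library total alone it turned to −0.50.

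Mylip, Soat1 and Pparg fell together with LPS. Mylip in WT mice went from 140, 77.8, 57.8, 166 and 101 CPM to 50.0, 18.1, 20.1, 59.5 and 21.2 CPM, with mouse 1 and mouse 4 highest in both groups. Its log2 change was −1.69 ± 0.45 (adjusted p = 0.00149) in WT and −1.68 ± 0.45 (adjusted p = 0.00155) in NDI1. Soat1 went from 483, 457, 477, 442 and 361 CPM to 221, 206, 246, 174 and 179 CPM, with no overlap. Its log2 change was −1.11 ± 0.12 in WT (adjusted p = 1.62e-10) and −1.15 ± 0.12 in NDI1 (adjusted p = 7.86e-11). Pparg went from 28.8, 21.0, 17.9, 25.9 and 14.2 CPM to 7.08, 4.81, 4.91, 5.76 and 4.84 CPM, again with no overlap. Its log2 change was −1.98 ± 0.31 in WT (adjusted p = 6.88e-07) and −2.03 ± 0.31 in NDI1 (adjusted p = 5.71e-07). These 3 genes and Ch25h were called in both genotypes under each alternative that tested them. Lpcat3 was lower by less, at −0.19 ± 0.13 in WT, called with mouse as a block (adjusted p = 0.0207) and with the library total alone (−0.96, adjusted p = 6.04e-08), and −0.30 ± 0.13 in NDI1 (adjusted p = 0.0455). The NDI1 call of Lpcat3 was lost in 9 of 18 settings, and Emg1 overlaps its exons on the other strand.

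No difference between the genotypes was called for these genes. By edgeR none of the 10 was called between NDI1 and WT, untreated (0% of all genes) or with LPS (0%), nor for the difference in LPS effect (0%). At an unadjusted p under 0.05 none of the 10 passed in any of these 3 comparisons, against 39, 141 and 63 of all genes, and DESeq2 also called 0 genes in each. The difference in LPS effect was tested there without the pairing by mouse. With mouse as a block it was called for 0 of the 10 and 0 of all genes. The fitted log2 differences of the untreated cells lay between −0.24 ± 0.28 (Pparg) and 0.18 ± 0.37 (Nr1h3), sizes that the spread between mice did not resolve.

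**Figure D2:**
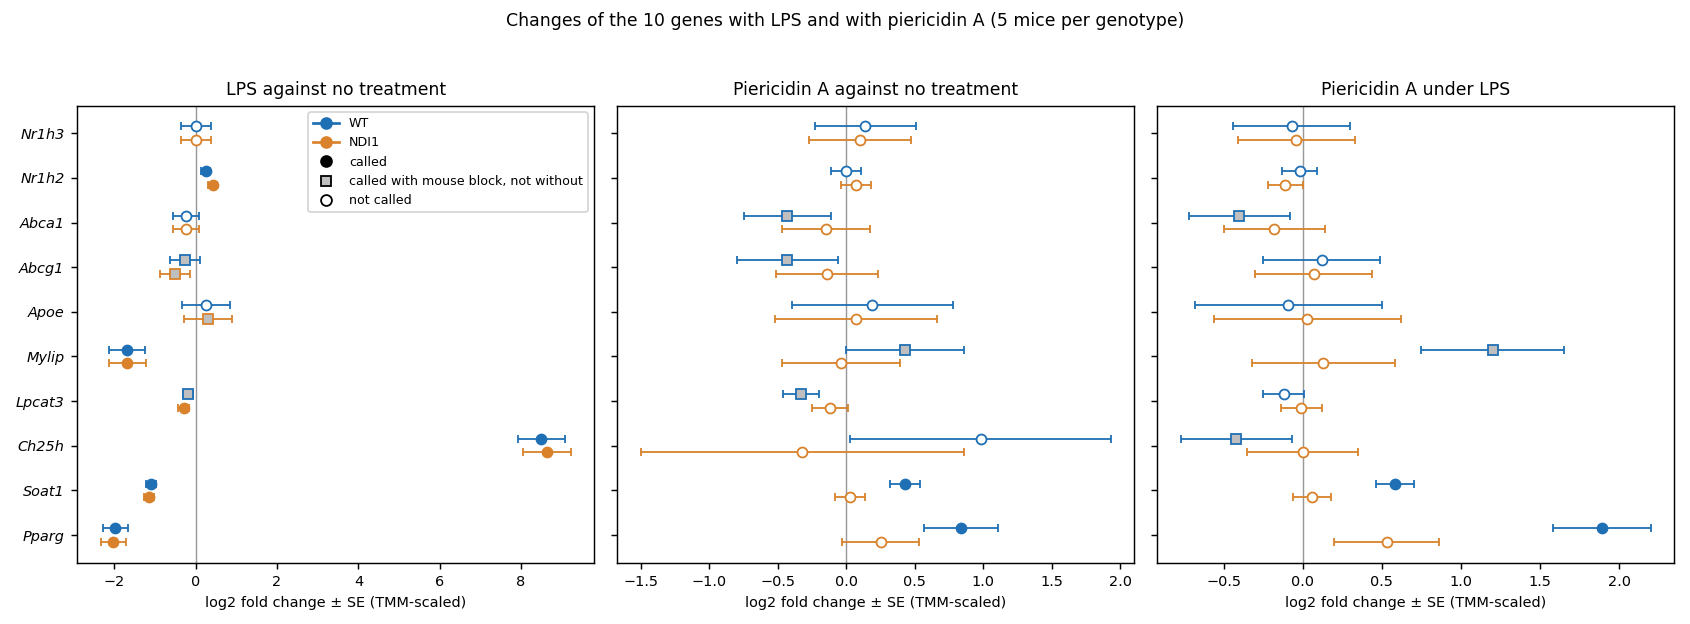
Log2 fold change ± SE of the 10 genes (rows) with LPS, with piericidin A, and with piericidin A under LPS in WT and NDI1 cells of 5 mice each, filled in colour where called and grey where called with mouse as a block but not in the fit without it. The LPS changes of both genotypes lie beside each other, while with piericidin A coloured points occur for Soat1 and Pparg in WT, and with the library total alone the LPS changes of Nr1h2, Apoe and Nr1h3 are below 0 in both genotypes.

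Piericidin A without LPS raised Soat1 and Pparg in WT cells. These were 2 of the 10 genes, both higher, against 14.8% of all genes called (7.79% higher and 7.05% lower). With mouse as a block, 6 of the 10 were called against 34.2% of all genes. With the library total alone neither was called, at 0.30 for Soat1 (adjusted p = 0.107) and 0.70 for Pparg (adjusted p = 0.0596), and the 1 gene called was Lpcat3, lower, against 18.7% of all genes. In NDI1 cells none of the 10 was called and 0% of all genes were, by edgeR or by DESeq2. At an unadjusted p under 0.05 it was 0 of the 10 and 58 of all genes. That fit leaves out the pairing by mouse, so a low number there does not show that nothing changed. With mouse as a block 0 of the 10 and 0 of all genes were called. The median log2 change over the 10 genes was 0.16 in WT and 0.00 in NDI1, beside 0.00 over all genes.

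Soat1 rose from the untreated values above to 603, 586, 576, 638 and 587 CPM in WT mice 1 to 5, with every treated library above every untreated one. The log2 change was 0.43 ± 0.11 (adjusted p = 0.00961). In NDI1 mice Soat1 was at 475, 435, 492, 427 and 365 CPM untreated and at 490, 392, 550, 426 and 376 CPM with piericidin A, a change of 0.03 ± 0.11. Pparg reached 44.9, 28.2, 31.3, 52.5 and 35.8 CPM in WT, where mouse 2 (28.2 CPM) lay just under the highest untreated library (28.8 CPM). Its log2 change was 0.84 ± 0.27 (adjusted p = 0.0339), and within the mice it rose in 5 of 5, by 0.42 to 1.32. In NDI1 it was 0.25 ± 0.28. Both WT calls also depended on the mice in the fit. Without mouse 4 of both genotypes they were 0.40 for Soat1 (adjusted p = 0.0561) and 0.78 for Pparg (adjusted p = 0.109), and without WT mouse 5 they were 0.37 (adjusted p = 0.0672) and 0.74 (adjusted p = 0.124). The Pparg call was also lost without WT mouse 1, 3 or 4 (adjusted p = 0.0636, 0.0572 and 0.103). With mouse as a block both were called (adjusted p = 0.000282 and 0.00211).

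The further genes called with mouse as a block were Mylip, higher by 0.41 ± 0.15 (adjusted p = 0.0322), and Abca1, Abcg1 and Lpcat3, lower. Mylip was higher with piericidin A in all 5 WT mice, by 0.25 to 0.80. Abca1 had a log2 change of −0.38 ± 0.14 in that fit (adjusted p = 0.0395). It stood at 668, 621, 504, 661 and 453 CPM with piericidin A and was lower in each WT mouse, with −0.98 in mouse 4 and −0.33 to −0.15 in the others. Abcg1 was at 305, 164, 227, 244 and 99.5 CPM, also lower in each WT mouse, with −0.42 ± 0.13 (adjusted p = 0.00955). Lpcat3 was at 35.2, 42.7, 48.6, 40.8 and 29.6 CPM, with −0.34 ± 0.08 (adjusted p = 0.000743), and it was also called by DESeq2 and with the library total alone (−0.45, adjusted p = 0.015). Without the block the adjusted p was 0.546 for Mylip, 0.383 for Abca1, 0.482 for Abcg1 and 0.0782 for Lpcat3. In NDI1 cells the within-mouse changes of Abca1 (−0.68 to −0.04), Abcg1 (−0.42 to −0.01) and Lpcat3 (−0.23 to −0.01) were also below 0 in 5 of 5 mice, and none was called.

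Summed markers of several cell types moved with piericidin A in WT. The neutrophil and precursor sum was higher in 5 of 5 WT mice without LPS (143 to 404 CPM in mouse 4). Under LPS it was higher in 5 of 5 as well (200 to 585 CPM in mouse 4). Without LPS the macrophage, T cell, and mast cell and basophil sums were also higher in 5 of 5 WT mice. The dendritic cell sum was higher in 4 and the B cell and stromal sums in 3. The erythroid sum was higher in 2 and the endothelial sum in 1. Under LPS the dendritic cell and stromal sums were higher in 5 of 5 and the endothelial sum in 4. The T cell, B cell, and mast cell and basophil sums were higher in 3, and the macrophage and erythroid sums in 1. Of the 4 neutrophil and precursor markers tested, none was called without the block. With it 2 were higher without LPS, against 34.2% of all genes called in that fit, and 3 under LPS, against 34.5%. Under LPS 1 of 2 stromal and 1 of 3 dendritic cell markers were higher too. Of 8 macrophage markers the blocked fit called 1 higher and 1 lower without LPS, and 1 higher and 2 lower under LPS. In NDI1 the neutrophil and precursor sum was higher in 3 of 5 mice without LPS and in 4 of 5 under LPS. The part of these cells in the piericidin A changes of the 10 genes was not tested.

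Piericidin A before LPS raised Pparg and Soat1 in WT cells, again 2 of the 10 genes and both higher, against 16.7% of all genes (7.81% higher and 8.92% lower). With mouse as a block it was 5 of the 10 against 34.5% of all genes. In NDI1 cells none of the 10 was called and 0% of all genes were, by edgeR or by DESeq2, with 0 of the 10 and 127 of all genes at an unadjusted p under 0.05. These counts again come from the fit without pairing, and with mouse as a block 0 of the 10 and 0 of all genes were called. Pparg with both agents was at 17.6, 8.32, 9.77, 33.4 and 31.8 CPM in WT mice 1 to 5, every one above the highest library with LPS alone (7.08 CPM). Mice 4 and 5 were far above the other 3. The log2 change was 1.89 ± 0.31 (adjusted p = 6.25e-05). In NDI1 mice Pparg was at 4.39, 2.94, 3.78, 5.36 and 5.86 CPM with LPS and at 7.98, 2.46, 6.78, 6.72 and 8.12 CPM with both, a change of 0.53 ± 0.33 that was not called.

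Soat1 under LPS went from the LPS values above to 299, 245, 299, 355 and 331 CPM with piericidin A in WT mice. It was higher in 5 of 5 mice, with mouse 2 (245 CPM) just under the highest library with LPS alone (246 CPM), and the log2 change was 0.58 ± 0.12 (adjusted p = 0.000693). In NDI1 mice it stood at 221, 178, 223, 186 and 181 CPM with LPS and at 234, 184, 223, 193 and 200 CPM with both, a change of 0.06 ± 0.12. The calls of Pparg and Soat1 under LPS in WT held in 18 of 18 alternative settings. In both cases the level with both agents remained below that with piericidin A alone, at 20.2 ± 11.9 against 38.5 ± 10.0 CPM for Pparg and at 306 ± 41.2 against 598 ± 24.6 CPM for Soat1.

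Mylip under LPS was at 103, 27.0, 27.2, 145 and 85.0 CPM with piericidin A in WT mice, higher than with LPS alone in 5 of 5, by 0.44 (mouse 3) to 1.99 (mouse 5). The log2 change was 1.20 ± 0.45 (adjusted p = 0.0602) and with mouse as a block 1.10 ± 0.16 (adjusted p = 7.31e-06), and it was called in 4 of 18 alternative settings, the block included. In NDI1 mice it was at 23.1, 25.1, 43.4, 50.9 and 20.2 CPM with LPS and at 24.6, 18.3, 53.4, 60.0 and 22.0 CPM with both, and the groups overlapped. Abca1 and Ch25h were lower in WT with the block only. Abca1 was at 600, 467, 336, 758 and 365 CPM, lower than with LPS alone in 5 of 5 mice (−0.41 ± 0.14, adjusted p = 0.0259, and 0.406 without the block). Ch25h was at 92.0, 48.1, 30.8, 72.0 and 37.0 CPM, lower in 3 of 5 mice (−0.41 ± 0.16, adjusted p = 0.0458, and 0.429 without the block). The log2 change of Abcg1 was 0.12 ± 0.37 under LPS and −0.43 ± 0.37 without, neither called in this fit.

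**Figure D3:**
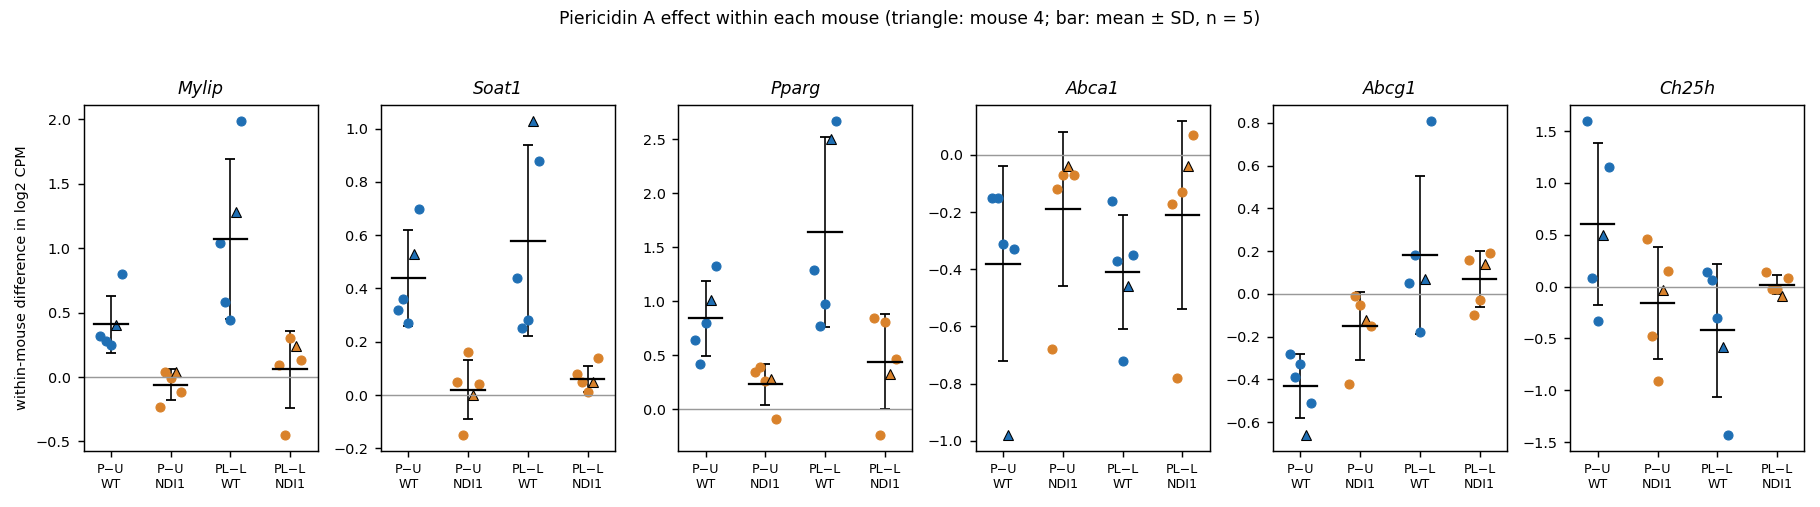
Within-mouse difference in log2 CPM with piericidin A (y axis), without LPS (P−U) and with LPS (PL−L), for 6 of the genes in WT (blue) and NDI1 (orange), with 1 point per mouse and the mean ± SD of 5. For Mylip, Soat1 and Pparg all 5 WT mice lie above 0 in both settings, and WT mice 4 and 5 lead for Pparg under LPS (2.50 and 2.67).

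Whether NDI1 altered the piericidin A effect was tested as a difference of changes. Without LPS, none of the 10 was called by edgeR (1.27% of all genes were), with 1 of the 10 at an unadjusted p under 0.05 and 0 called by DESeq2. With mouse as a block Soat1 differed, by −0.41 ± 0.12 (adjusted p = 0.0311, and 0.299 without the block), against 8.96% of all genes. Under LPS none of the 10 was called (0.979% of all genes), with 2 of the 10 at an unadjusted p under 0.05 and 0 called by DESeq2. With the block 3 of the 10 differed against 9.51% of all genes. The piericidin A effect under LPS was lower in NDI1 than in WT, with log2 differences of −1.30 ± 0.39 for Pparg (adjusted p = 0.0338), −1.02 ± 0.23 for Mylip (adjusted p = 0.00585) and −0.51 ± 0.13 for Soat1 (adjusted p = 0.0101). The same differences without the block had adjusted p values of 0.136, 0.475 and 0.119. For Abca1 (0.22 ± 0.45) and Ch25h (0.42 ± 0.49) the difference was not called in either fit.

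Whether LPS altered the piericidin A effect in WT was tested likewise. By edgeR none of the 10 was called (4.75% of all genes), with 1 of the 10 at an unadjusted p under 0.05 and 0 called by DESeq2. With the block 3 of the 10 differed against 17.4% of all genes. The change with piericidin A was higher under LPS than without it by 0.99 ± 0.33 for Pparg (adjusted p = 0.0337), by 0.68 ± 0.22 for Mylip (adjusted p = 0.0304) and by 0.62 ± 0.18 for Abcg1 (adjusted p = 0.0152). The piericidin A changes with and without LPS come from the same 5 mice.

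Around the 10 genes, 6 related lists were read in the same fits. Of their 18 genes called higher with LPS in WT, 6 were still called higher with the library total alone, and 3 (Tbl1x, Abca7 and Acadl) were at or below 0. The counts below stand beside 62.5% of all genes called with LPS, 14.8% with piericidin A and 16.7% with piericidin A under LPS, and a share near these is no trait of a list. In the fit with mouse as a block the shares over all genes are 72.0%, 34.2% and 34.5%, and the counts of the lists in that fit are to be read against those. Of 10 tested LXR partners and co-regulators, 2 rose and 4 fell with LPS in WT, a share called close to that of all genes, with a median of −0.23 beside −0.01 over all genes. The RXR partner genes Rxra (−3.73 ± 0.36, adjusted p = 1.64e-11) and Rxrb (−1.05 ± 0.13, adjusted p = 6.15e-09) fell, while the mediator gene Med1 (0.97 ± 0.11) and the co-repressor subunit Tbl1x (0.74 ± 0.15) rose. Piericidin A under LPS raised 3 of the 10 and lowered none, with Rxra at 1.92 ± 0.34 (adjusted p = 0.000192) and Tbl1xr1 at 0.53 ± 0.16 (adjusted p = 0.0193). Without LPS it lowered 1 and raised none. The blocked fit called 2 higher and 6 lower with LPS, 1 higher and 1 lower with piericidin A, and 5 higher and 1 lower with piericidin A under LPS.

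Of 15 tested other LXR target genes, LPS raised 1, the ubiquitin ligase gene Rnf145 (1.98 ± 0.21), and lowered 4, with Arl4c, a small GTPase linked to cholesterol export, furthest (−3.59 ± 0.37, adjusted p = 8.97e-11). Next came the lipid metabolism genes Acsl3 (−2.04 ± 0.34) and Scd2 (−1.75 ± 0.38). Under LPS piericidin A raised 1 and lowered none of the 15. The gene was Arl4c (3.85 ± 0.37, adjusted p = 6.67e-09), and the difference in its change, NDI1 minus WT, was −3.55 ± 0.50 (adjusted p = 9.62e-05). Without LPS 2 rose (Abca5 at 0.80 ± 0.25 and Smpdl3a at 0.39 ± 0.13) and 2 fell (Rnf145 at −0.91 ± 0.20 and Fasn at −0.71 ± 0.14). In the blocked fit the counts were 3 higher and 5 lower with LPS, 4 higher and 5 lower with piericidin A, and 4 higher and 4 lower with piericidin A under LPS. The median over the 15 was 0.09 with LPS, 0.04 with piericidin A and 0.19 with piericidin A under LPS.

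Of 18 genes of sterol uptake, storage and export, 6 rose and 6 fell with LPS in WT, again close to the share over all genes. The scavenger receptor genes Olr1 (4.87 ± 0.63) and Msr1 (2.39 ± 0.27) rose most, and the cholesteryl ester hydrolase gene Nceh1 (−1.53 ± 0.20), the lipoprotein receptor gene Lrp1 (−1.19 ± 0.25) and the lysosomal exporter gene Npc1 (−0.99 ± 0.18) fell most. Piericidin A under LPS raised 1, Nceh1 (1.12 ± 0.19, adjusted p = 0.000134), which acts opposite to Soat1 on cholesteryl esters, and lowered 4, led by Stard4 (−1.27 ± 0.37), Abca7 (−0.60 ± 0.17) and Stard3 (−0.45 ± 0.11). Without LPS it raised Npc2 (0.32 ± 0.09) and lowered Abca7 (−0.91 ± 0.17). Blocked by mouse, 6 were higher and 7 lower with LPS, 5 higher and 5 lower with piericidin A, and 2 higher and 6 lower with piericidin A under LPS. The list's medians were −0.24, 0.10 and −0.03 for LPS, piericidin A under LPS and piericidin A alone.

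Of 6 tested genes of oxysterol formation and sensing, LPS raised Insig1 (1.15 ± 0.43, adjusted p = 0.0186), which holds SREBP in the endoplasmic reticulum, and lowered the oxysterol receptor gene Gpr183 (−2.00 ± 0.46) and the bile acid synthesis gene Hsd3b7 (−0.77 ± 0.18). Piericidin A raised Insig1 without LPS (2.44 ± 0.44, adjusted p = 0.000176) and, with Insig2 (0.80 ± 0.15), also under LPS (1.22 ± 0.42, adjusted p = 0.0423). Without LPS 1 other of the 6 fell. The blocked fit left the LPS counts at 1 higher and 2 lower and gave 2 higher and 1 lower with piericidin A, and 4 higher and 1 lower with piericidin A under LPS. Of 7 tested PPAR factors and target genes, piericidin A raised 3 and lowered 2 without LPS, and raised 2 and lowered none under LPS. The lipid chaperone gene Fabp4, a target of PPARγ, rose by 1.72 ± 0.36 without LPS (adjusted p = 0.00122) and by 1.60 ± 0.36 under LPS (adjusted p = 0.00239), and the receptor gene Ppard rose by 1.13 ± 0.23 and 1.21 ± 0.27. Acadl also rose without LPS (0.44 ± 0.11), and Angptl4 (−1.79 ± 0.46) and Cpt1a (−0.43 ± 0.11) fell. With LPS alone 2 of the 7 rose (Ppargc1b at 1.42 ± 0.33 and Acadl at 0.78 ± 0.11) and 2 fell (Angptl4 at −5.18 ± 0.64 and Ppard at −1.90 ± 0.26). Blocked by mouse, 4 of the 7 were higher and 2 lower with LPS, 4 higher and 3 lower with piericidin A, and 3 higher and none lower with piericidin A under LPS.

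Of 14 tested SREBP-2 sterol synthesis genes, the counterpart that macrophages use to make cholesterol, 6 rose and 2 fell with LPS in WT, and with piericidin A alone edgeR called 0, with 4 at an unadjusted p under 0.05. By the same fit 8 fell and none rose with piericidin A under LPS, with a median of −1.06 beside −0.02 over all genes. Cyp51 (−1.68 ± 0.37), Fdft1 (−1.57 ± 0.33) and Idi1 (−1.53 ± 0.49) fell most. The blocked fit called 10 of the 14 lower with piericidin A under LPS (34.5% of all genes were called in either direction), 7 lower and 1 higher with piericidin A alone (34.2%), and 9 higher and 3 lower with LPS (72.0%). In NDI1 cells no gene of the 6 lists was called with piericidin A, with or without LPS, where edgeR and DESeq2 called 0 of all genes and 0 of the list genes passed at an unadjusted p under 0.05. A gene called in WT and not in NDI1 is not thereby shown to differ. For the SREBP-2 genes the difference in the piericidin A effect under LPS, NDI1 minus WT, was called for 0 of the 14 by edgeR without the block (8 at an unadjusted p under 0.05) and for 8, all above 0, with it (9.51% of all genes). For the other 5 lists that difference was called for 1 gene (Arl4c) without the block and, with it, for 4 of 10 LXR partners, 1 of 15 other LXR targets, 4 of 18 sterol uptake, storage and export genes, 4 of 6 oxysterol genes and 2 of 7 PPAR genes.

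**Figure D4:**
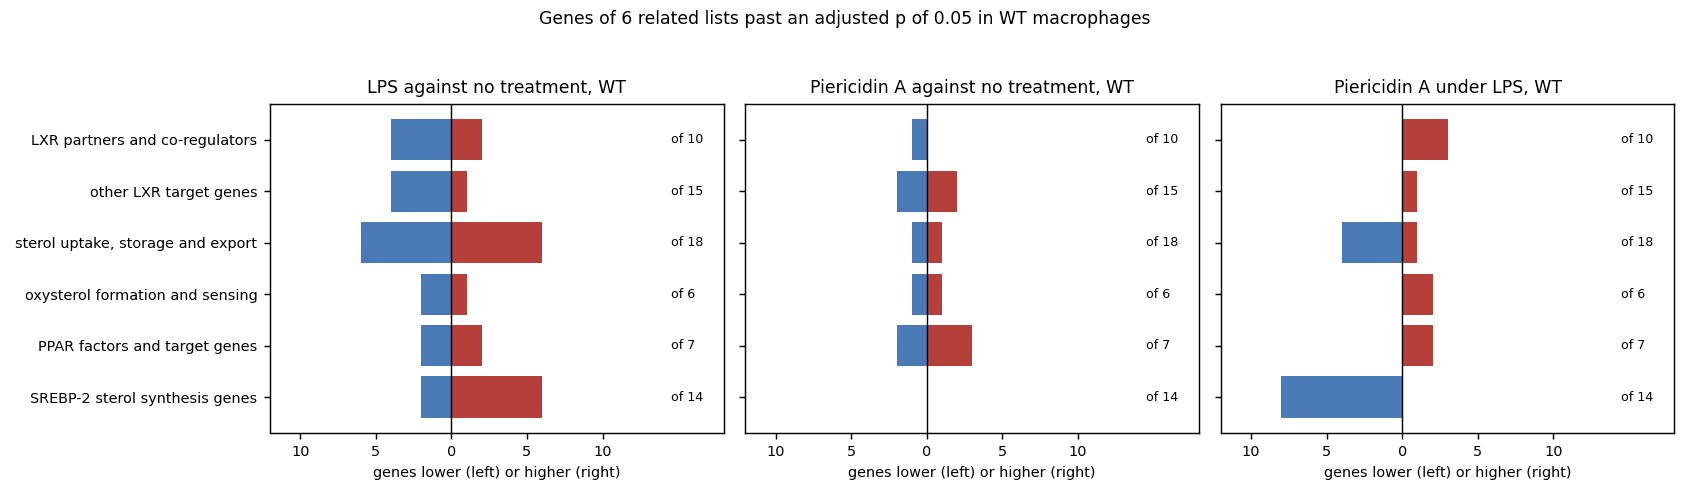
Number of genes called lower (left, blue) or higher (right, red) in WT cells in the fit without the block for each of the 6 related lists (rows), with the number tested at the right of each panel, for LPS, piericidin A and piericidin A under LPS. Of the 14 SREBP-2 genes 6 were higher with LPS and 8 lower with piericidin A under LPS, and 3 of the 10 LXR partners were higher in the latter.

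The genes with the most similar profile over the 8 group means (log2 CPM, centred) were sought for Abca1, Abcg1 and Ch25h. For Abca1 they included Zfp644 and Rfwd3, each with a root mean square difference of 0.068. For Abcg1 they were Nup210, Neurl3 and Wrap53 (0.061, 0.067 and 0.07), and for Ch25h they were Ifi205, Socs3 and Lhx2 (0.121, 0.272 and 0.299). Abca1 ran from 785 ± 295 CPM in untreated WT cells to 505 ± 175 CPM in WT cells with both agents, and the ranges of all neighbouring groups in that order overlapped.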

How the data were processed

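RNA was sequenced from 40 BMDM libraries. Per the labels and the study's methods, the authors used bcl2fastq, Trimmomatic for trimming, STAR with the mm10 build, and HTSeq to count reads over exons. They deposited raw counts per gene without normalization. Most tool versions, the annotation release and the strand setting are not given in the sources used here, so overlapping genes are reported as uncertain. Of the columns, 1 matched no sample and was left out, and the deposited gene lengths exceeded the gene's span for 1982 genes and were not used. Lengths and overlaps came from GENCODE M21 merged exons. The NDI1 transcript itself was not analysed here.

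Genes were filtered with filterByExpr and tested in edgeR 4.0.16 (R 4.3.3; TMM, glmQLFit, 1 coefficient per group over all 40 libraries, Benjamini-Hochberg over 11853 genes). SE is the log2 fold change divided by the square root of F, and log2 CPM within mice used a prior count of 2. Mice are numbered 1 to 5 within a genotype. Libraries whose titles share a number were read as coming from the same mouse, which the labels do not state. Same-mouse libraries deviated together (mean r = 0.453, 60 pairs), unlike libraries of different mice (−0.107, 240 pairs), so a fit with mouse as a block was the paired alternative. Other alternatives were DESeq2 1.42.0, RLE factors, other count filters, only the compared libraries, and leaving out each mouse. The library total alone and leaving out both mice 4 were added after seeing the data. The edgeR test was also run on simulated counts drawn without a shared mouse effect. Such counts cannot weigh the calls with the block against those without it. Replicate pairs differed beyond sampling noise (chi-square per degree of freedom at least 9.6 over 80 pairs). Counts of 0 to 3 are near the limit of detection, and depth errors cover counting only.

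The 10 genes, the lists and the motifs were chosen with earlier results of these data known. The rule for named genes took the 10 genes and, per list and direction, at most 3 called genes with the largest change and a mean log2 CPM of at least 1. Some genes that this rule would name are not reported here.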

Additional observations from a re-analysis of the deposited data

Results flagged for a closer look

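Of 80 sets of 5 libraries (10 genes in 8 groups), 8 held a library whose log2 level was far from the others, with a gap to the next above 0.71 of the group's range. Chance gives about 1 in 20 of independent sets, but the same mice recur in the 4 groups of a genotype, so these 80 are not independent and the number cannot be read against that share. Of the 8, 6 were in mouse 4, and the 4 of Apoe are 1 animal. Apoe in NDI1 mouse 4 was at 8850 CPM untreated (others 2320 to 3410), 11600 with LPS (others 2940 to 4110), 9440 with piericidin A (others 2670 to 3280) and 11600 with both (others 3110 to 4040). Nr1h3 in mouse 4 was at 79.4 CPM in untreated WT (others 31.1 to 34.5) and at 100 CPM in untreated NDI1 (others 28.5 to 40.9). Nr1h2 was at 115 CPM in NDI1 mouse 2 with piericidin A (others 80.2 to 89.0). Pparg was at 2.46 CPM in NDI1 mouse 2 with both agents (others 6.72 to 8.12).

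With mouse as a block, the piericidin A effect differed between the genotypes for 1 of the 10 genes without LPS (8.96% of all genes) and for 3 under LPS (9.51%). NDI1 minus WT, it was −0.41 for Soat1 without LPS and −1.02 for Mylip, −0.51 for Soat1 and −1.30 for Pparg under LPS (log2). By edgeR without the block none of these was called (adjusted p = 0.299, 0.475, 0.119 and 0.136, in that order). Each was called in 1 of 18 alternative settings, the block itself.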

How the results depend on the processing

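The numbers of the 10 genes called depended on the pairing more than on the tool. With the replicate block they rose from 2 to 6 (piericidin A in WT), from 2 to 5 (piericidin A under LPS in WT), from 0 to 1 and from 0 to 3 (its difference between genotypes without and with LPS) and from 0 to 3 (with minus without LPS in WT). The shares called over all genes rose with the block too. In the same order they went from 14.8% to 34.2%, from 16.7% to 34.5%, from 1.27% to 8.96%, from 0.979% to 9.51% and from 4.75% to 17.4%. The rise is therefore no trait of the 10 genes. The block changed no other count by over 1.5 times. The count for LPS in WT fell from 5 to 3 with at least 10 counts in every library, a filter that leaves out Ch25h and under which Nr1h2 lost its call (0.18, adjusted p = 0.15). It rose to 9 (1 higher, 8 lower) with the library total alone, against 81.0% of all genes. For piericidin A in WT the count was 1 with the library total alone (Lpcat3 lower, with Soat1 and Pparg lost), against 18.7% of all genes, and 0 without both mice 4. Leaving out 1 mouse at a time gave 4 to 5 genes for LPS in WT, 5 to 6 for LPS in NDI1, 0 to 2 for piericidin A in WT and 2 to 3 for piericidin A under LPS in WT, and 0 in the other 8 comparisons. The call of Pparg with piericidin A was lost without WT mouse 1, 3, 4 or 5, and that of Soat1 without mouse 5. DESeq2, RLE factors, no filter and the compared libraries alone moved no count by over 1.5 times. The library total alone reversed Nr1h2 with LPS (−0.53 in WT, −0.35 in NDI1) and Apoe with LPS (−0.56 in WT, −0.50 in NDI1), put Nr1h3 with LPS at −0.77 in both genotypes, called in each, and moved 29 of 80 group means by over 1 SD. The cause was not tested beyond the shift of the median gene. Without length, Nr1h3 and Lpcat3 exchanged ranks 7 and 8 in untreated WT, and Ch25h moved from rank 3 to 6 with LPS. Depth limits Ch25h without LPS.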
